A study of Mus musculus with 6 samples.

Results

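The homeobox genes outside the Hox clusters were examined in RNA-seq of mouse embryo fibroblasts (MEFs) with and without MCM8, a helicase of the minichromosome maintenance family that acts in DNA repair. The members were 56 genes given by symbol, of the ALX, PRRX, MSX, DLX, SINE, LHX, MEIS, PBX, IRX and related families, out of 55565 genes in the deposited tables. Hox and Pitx genes were left out. All 56 symbols were found, and 52 of them had counts in at least 1 library. The file's own transcription factor annotation placed 47 in the homeobox family and 4 in another family (Otx1, Tshz1, Tshz2 and Tshz3), and gave none for Meis2, Tgif1, Pbx3, Mkx and Hhex.

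The libraries were 3 wildtype (WT) and 3 Mcm8 knockout (KO) MEF samples. Per the study's methods, the mice carried an exon deletion made with CRISPR-Cas9 in C57BL/6 and were then crossed to ICR, and the embryos of both genotypes came from crosses of heterozygous parents at E13.5. The fibroblasts came from the embryonic trunk alone, so that limb, head, heart and liver tissue was not part of the starting material, and were immortalized with an SV40 lentivirus and selected with puromycin, so both genotypes carry the viral antigen. The methods call the 3 libraries of a genotype biological repeats but do not say whether they were separate embryos or cultures. If they were not, p-values measure only the spread between these samples, which may be technical.

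A homeobox encodes the homeodomain, a helical DNA-binding fold that in many members contacts a short AT-rich core. The classes differ in their partners: TALE proteins (MEIS, PBX, TGIF, IRX) carry a loop extension, and those of the PBX and MEIS groups bind with Hox proteins, LIM proteins bind LDB cofactors, and SINE-class proteins bind EYA and DACH proteins. In the embryo these genes set position and skeletal or muscle fate in mesenchyme, and cultured fibroblasts are known to keep part of the pattern of their site of origin.

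Of the 52 members tested, 12 were higher in KO MEFs, 6 were lower and 34 did not pass the test, where 4.97% of all genes tested were higher and 4.03% lower. The largest called changes were those of genes that were nearly silent in WT MEFs, led by Barx1, at 0.120 ± 0.10 CPM in WT and 1.74 ± 0.381 CPM in KO (counts relative to the scaled library total; SD, n = 3 each), and Alx1, at 0.368 ± 0.357 and 4.10 ± 0.167 CPM. Among members with higher levels, Irx3 rose from 5.56 ± 0.604 to 15 ± 1.10 CPM, while Irx1, Irx2 and Emx2 fell to between 63.6% and 81.8% of WT. Prrx1 and Shox2, which with Irx1, Irx2 and Tshz1 had the highest mean FPKM, did not pass the test. Their log2 fold changes were 0.04 (SE 0.07) and -0.02 (SE 0.08).

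Library totals ran from 12722979 to 19019695 counts in WT and from 15954793 to 21022755 in KO, so that 3 counts stood for 0.142 to 0.235 CPM. Libraries of one genotype correlated at 0.990 to 0.996 (Pearson's r of log2 CPM across genes, which are not independent replicates), and libraries of different genotypes at 0.982 to 0.986. Mcm8 itself had 176, 233 and 238 counts in WT and 89, 74 and 66 in KO, a log2 fold change of -1.75 (SE 0.16), with transcripts still counted after the exon deletion. Xist, the RNA of the inactive X chromosome, stood at 1196 ± 224 CPM in WT and 481 ± 11.4 CPM in KO, whereas 4 Y-linked genes were 3.87- to 5.49-fold higher in KO (Ddx3y 7.77 to 42.6 CPM). Both signals were present in all 6 libraries and moved with genotype, so the sex makeup of the cells and the genotype cannot be told apart. Of the fibroblast markers, all 10 were detected, with a summed level of 20861 to 22793 CPM in WT and 21441 to 22060 CPM in KO. The labels give no batch.

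The promoters of 4 members that changed are printed first, since the AT-rich core that many homeodomains bind can be seen in some of them and not in others. Each runs from 250 bases before to 50 bases after the RefSeq start on GRCm38.p6, 5′ to 3′ along the gene. Capitals mark TAAT or its reverse complement ATTA, searched on both strands with overlapping matches counted. Msx2 lies at chr13:53472731-53473030 on the minus strand, Six2 at chr17:85688205-85688504 on the minus strand, Emx2 at chr19:59458440-59458739 on the plus strand and Irx3 at chr8:91801605-91801904 on the minus strand.
Msx2: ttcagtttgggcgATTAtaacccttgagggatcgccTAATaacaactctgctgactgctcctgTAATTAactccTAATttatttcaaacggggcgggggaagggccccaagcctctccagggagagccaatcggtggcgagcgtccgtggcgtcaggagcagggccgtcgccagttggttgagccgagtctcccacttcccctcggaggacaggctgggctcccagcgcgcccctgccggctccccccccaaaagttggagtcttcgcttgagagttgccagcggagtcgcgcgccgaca
Six2: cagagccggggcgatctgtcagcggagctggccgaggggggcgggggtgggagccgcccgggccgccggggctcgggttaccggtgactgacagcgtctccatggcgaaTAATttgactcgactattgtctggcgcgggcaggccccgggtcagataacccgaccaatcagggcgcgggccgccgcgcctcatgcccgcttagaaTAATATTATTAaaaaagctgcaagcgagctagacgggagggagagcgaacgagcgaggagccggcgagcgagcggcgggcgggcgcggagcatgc
Emx2: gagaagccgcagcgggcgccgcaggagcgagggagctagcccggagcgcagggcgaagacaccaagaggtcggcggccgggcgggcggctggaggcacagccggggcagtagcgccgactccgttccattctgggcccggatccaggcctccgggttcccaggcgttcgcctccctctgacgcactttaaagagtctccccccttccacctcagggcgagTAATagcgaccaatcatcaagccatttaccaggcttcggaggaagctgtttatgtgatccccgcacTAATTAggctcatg
Irx3: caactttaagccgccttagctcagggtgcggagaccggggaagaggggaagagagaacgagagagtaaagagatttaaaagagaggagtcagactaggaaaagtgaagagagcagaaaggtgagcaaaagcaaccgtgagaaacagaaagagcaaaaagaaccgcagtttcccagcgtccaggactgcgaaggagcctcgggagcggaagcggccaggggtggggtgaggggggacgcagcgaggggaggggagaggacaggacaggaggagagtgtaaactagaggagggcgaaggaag
Msx2, which rose, holds 5 matches, and 1 of its stretches is the palindrome TAATTA. Six2, which also rose, holds 4 matches, 3 of them in a single run close to the start. Emx2, which fell, holds 3, with TAATTA near the end of the window, and Irx3 holds none. Of the other members described library by library below, Nkx3-2 holds 1 match and Tshz2 holds 2. Barx1, Irx2 and Dlx1 hold none. A RefSeq promoter was given for 39 of the 56 members. Of these, 21 (53.8%) held TAAT or ATTA, against 58.3% of all 27018 promoters, and 3 (7.69%) held TAATTA, against 5.31%. The sequence TGACAG or its reverse complement CTGTCA, a core of the TALE proteins MEIS and TGIF, was in 7 (17.9%) against 19.3%. Among called members with a promoter, TAAT or ATTA was in 7 of 10 called higher and 2 of 5 called lower. The members' promoters were richer in G and C, with a median of 63.3% against 52.7%, and had a median ratio of observed to expected CpG of 0.766 against 0.388. The deposited gene coordinates do not match the build of these sequences and are given below as the files give them.

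To compare levels between members, the deposited FPKM was used (fragments per kilobase of gene length, scaled to library size). In all, 28 members had a mean above 1 FPKM in both genotypes. Barx1 was above 1 FPKM in KO only. The 5 highest were Irx1 (mean over 6 libraries 45.8 FPKM), Prrx1 (27.4), Irx2 (25.9), Shox2 (18.2) and Tshz1 (16.4). Irx1 lay above Prrx1 in each genotype. In WT, Irx2 at 30.5 ± 1.26 FPKM lay above Prrx1 at 27.1 ± 0.405 FPKM, and in KO the order of the means was reversed, at 21.2 ± 0.521 and 27.8 ± 0.491 FPKM. Shox2, Tshz1, Prrx2 and En1 followed within 14.5 to 18.4 FPKM in both genotypes. In WT the neighbours in this order overlapped within 1 SD, and in KO En1 lay below the other 3 by more than that. PRRX1 and SHOX2 are regulators of limb and skeletal mesenchyme. At the other end, Dlx5, Dlx6, Evx2 and Irx4 had 0 counts in all 6 libraries, and Dlx3, Lmx1a, Irx6 and Nkx2-5 had 3 counts or fewer in every library. The summed FPKM of all members was 260.8 to 269.8 in WT and 257.6 to 262.6 in KO, and these ranges overlapped.

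**Figure D1:**
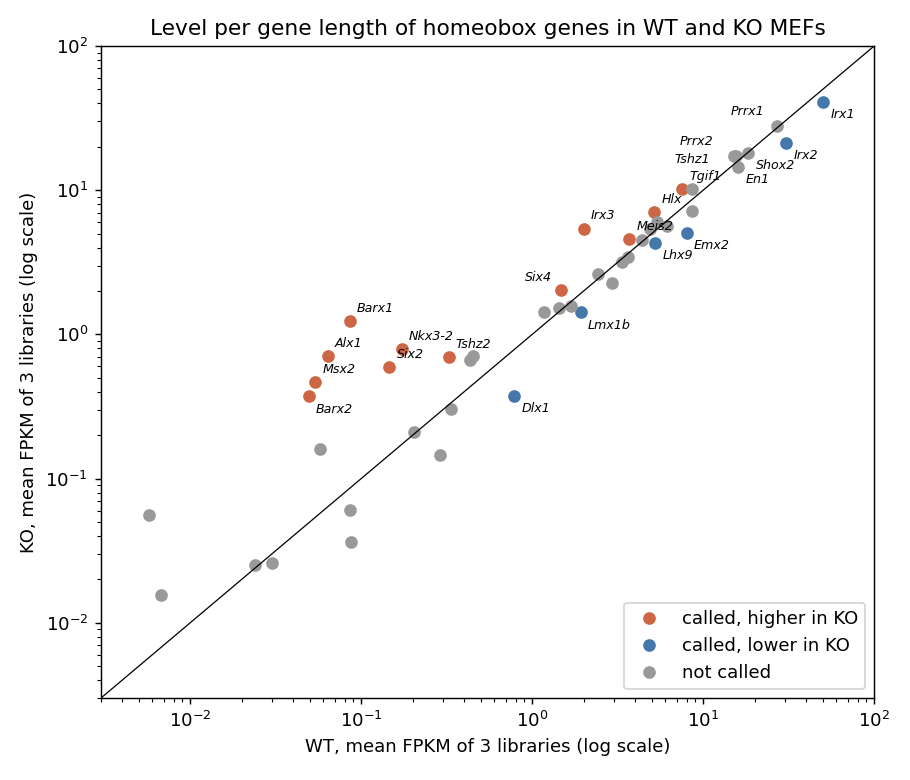
Mean FPKM of 48 homeobox genes in WT (horizontal axis) and KO MEFs (vertical axis) on log scales, n = 3 libraries each, with genes at 0 in either genotype left out and the line marking equal levels. Most genes above 1 FPKM lie near the line, Irx3 lies above it, and Barx1, Alx1, Msx2 and Barx2 stand above it at a WT level under 0.1 FPKM.

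Genotypes were compared with edgeR's quasi-likelihood test across the 26898 genes whose FPKM exceeded 0 in 1 or more of the libraries, and a gene was called at a Benjamini-Hochberg adjusted p below 0.05. The fit gave an infinite prior degrees of freedom, so its standard errors follow the spread shared by genes of like level rather than a gene's own. Over 2-fold, 8 of the 52 members tested were called higher, against 1.75% of all genes tested, and 1 was called lower, against 0.665%. Genes with a mean of at least 1 CPM were called more often, at 9.08% higher and 7.88% lower (2.54% and 1.04% over 2-fold). That set held 35 members, but not the called Barx1, Barx2, Msx2, Nkx3-2 and Six2. The 3 KO values lay above all 3 WT values for 20 members, against 11.6% of all genes, and below them for 9, against 10.1%. The median log2 fold change was 0.13 over the 52 members tested and 0.01 over all genes tested. By class, 5 of 16 tested ANTP genes rose and 2 fell, 3 of 16 TALE genes rose and 2 fell, and 2 of 3 SINE genes rose. Of the 7 LIM genes 2 fell and none rose, of the 7 PRD genes 1 rose, and of the 3 TSHZ zinc finger genes 1 rose. Fewer cells of a type and less RNA per cell cannot be told apart in these bulk samples.

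**Figure D2:**
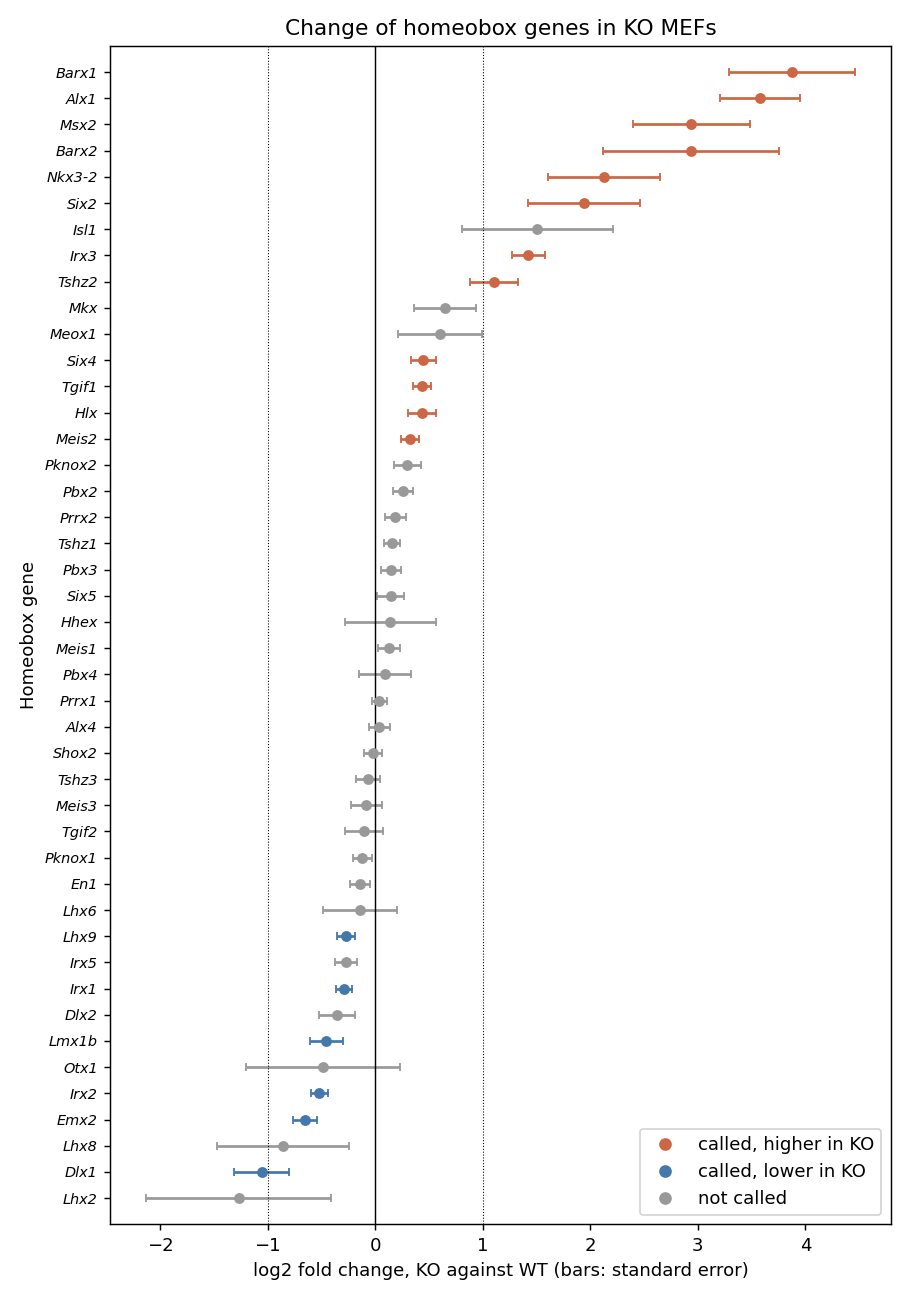
Log2 fold change of 44 homeobox genes in KO against WT MEFs (horizontal axis), with the standard error of the edgeR fit as bars and dotted lines at -1 and 1 (2-fold); members with 3 counts or fewer in every library, and Gsc, Msx1, Dlx4 and Meox2, are left out. Orange genes were called higher and blue genes lower at an adjusted p below 0.05. Among the genes shown, the changes past 2 in size are all upward and have wide bars. Of the genes left out, Nkx2-5 and Irx6 had fitted decreases past 2 and Gsc and Msx1 fitted increases past 2, all on few counts.

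Barx1 and Barx2 are related genes of the ANTP class, and BARX1 is known from stomach mesenchyme and teeth. Barx1 (ENSMUSG00000021381, chr13:48816474-48819983) stood at 0.235, 0.0713 and 0.0537 CPM in the WT libraries and at 1.6, 2.16 and 1.44 CPM in KO. In counts this was 3, 1 and 1 against 34, 36 and 23, so each WT library was at the limit of 3 counts or under it and each KO library well above it. The log2 fold change was 3.87 (SE 0.59, edgeR adjusted p = 2.70e-09), and 4.67 without WT replicate 1. Barx2, which lies on chromosome 9, moved the same way at a lower level, with 1, 3 and 0 counts in WT and 17, 14 and 9 in KO. Its log2 fold change was 2.93 (SE 0.82, edgeR adjusted p = 0.00589). Without WT replicate 3 or KO replicate 1 that call was lost (adjusted p = 0.0749 and 0.0561 with edgeR), and the value was 2.25 without WT replicate 3 and 4.23 without WT replicate 2.

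Alx1 is a PRD-class gene of craniofacial and limb mesenchyme. It is found at chr10:102834568-102866076 in the files (ENSMUSG00000036602) and had 0.392, 0.713 and 0 CPM in WT against 4.11, 4.27 and 3.93 CPM in KO. The KO libraries lay close together and the WT libraries were spread, with 5, 10 and 0 counts. The log2 fold change was 3.58 (SE 0.37, edgeR adjusted p = 6.57e-20), 4.60 without WT replicate 2 and 2.86 without WT replicate 3. With DESeq2 the SE was 1.01 and the adjusted p 0.00726. A long non-coding RNA on the same strand, Gm17028, overlaps Alx1 over 737 bases, and had 5 counts in the WT libraries together and 21 in KO. The paralogue Alx4 did not pass the test, at 31.1 and 32.1 CPM (log2 fold change 0.04, SE 0.10). Alx1 thereby made up 1.5% ± 1.41 of the summed ALX FPKM in WT and 13.7% ± 1.70 in KO.

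Msx2 encodes a repressor that acts downstream of BMP signals in skeleton, skin and limb bud. Msx2 (ENSMUSG00000021469, chr13:53620920-53627110) was at 0.157, 0 and 0.376 CPM in WT and at 1.27, 1.86 and 1.5 CPM in KO, without overlap. The log2 fold change was 2.94 (SE 0.54, edgeR adjusted p = 2.67e-06), and 4.23 without WT replicate 3, which held 7 of the 9 WT counts. Msx1 had 1 count in the WT libraries and 9 in KO, a ratio of 7.59 in CPM with an exact 95% interval for counting error of 1.05 to 333, and was not called.

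Nkx3-2, whose product promotes the formation of cartilage in the axial skeleton, was at 0.235, 0.285 and 0.376 CPM in WT and at 0.991, 1.68 and 1.44 CPM in KO (ENSMUSG00000049691, chr5:41918826-41921844). Every KO library lay above every WT library, and the log2 fold change was 2.13 (SE 0.52, edgeR adjusted p = 9.08e-04). Six2, known from kidney progenitors and from craniofacial and limb mesenchyme, was at 0.0784, 0.428 and 0.429 CPM in WT and at 1.18, 1.26 and 1.37 CPM in KO (ENSMUSG00000024134, chr17:85991705-85995702). The groups did not overlap here either, and the log2 fold change was 1.94 (SE 0.52, edgeR adjusted p = 0.00354). Its paralogue Six4 rose by less, from 16.1 ± 1.34 to 22.0 ± 1.54 CPM (log2 fold change 0.45, SE 0.11, edgeR adjusted p = 0.00158), and was not called with limma on log2(FPKM + 1) (adjusted p = 0.225). Six5 had a log2 fold change of 0.14 (SE 0.12) and did not pass. The 3 SINE members summed to 6.49 ± 0.570 FPKM in WT and 8.0 ± 0.128 FPKM in KO, without overlap.

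Tshz2, a gene of the teashirt zinc finger family, was at 2.74, 2.71 and 2.15 CPM in WT and at 5.15, 5.29 and 5.81 CPM in KO (ENSMUSG00000047907, chr2:169474933-169913736). The libraries of each genotype were close together, and the log2 fold change was 1.11 (SE 0.23, edgeR adjusted p = 3.10e-05). With limma on log2(FPKM + 1), a scale that shrinks the change of low genes, it missed the threshold (adjusted p = 0.0615). Tshz1, the most abundant of the family, had a log2 fold change of 0.15 (SE 0.08, edgeR adjusted p = 0.261), and Tshz3 one of -0.07 (SE 0.11).

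**Figure D3:**
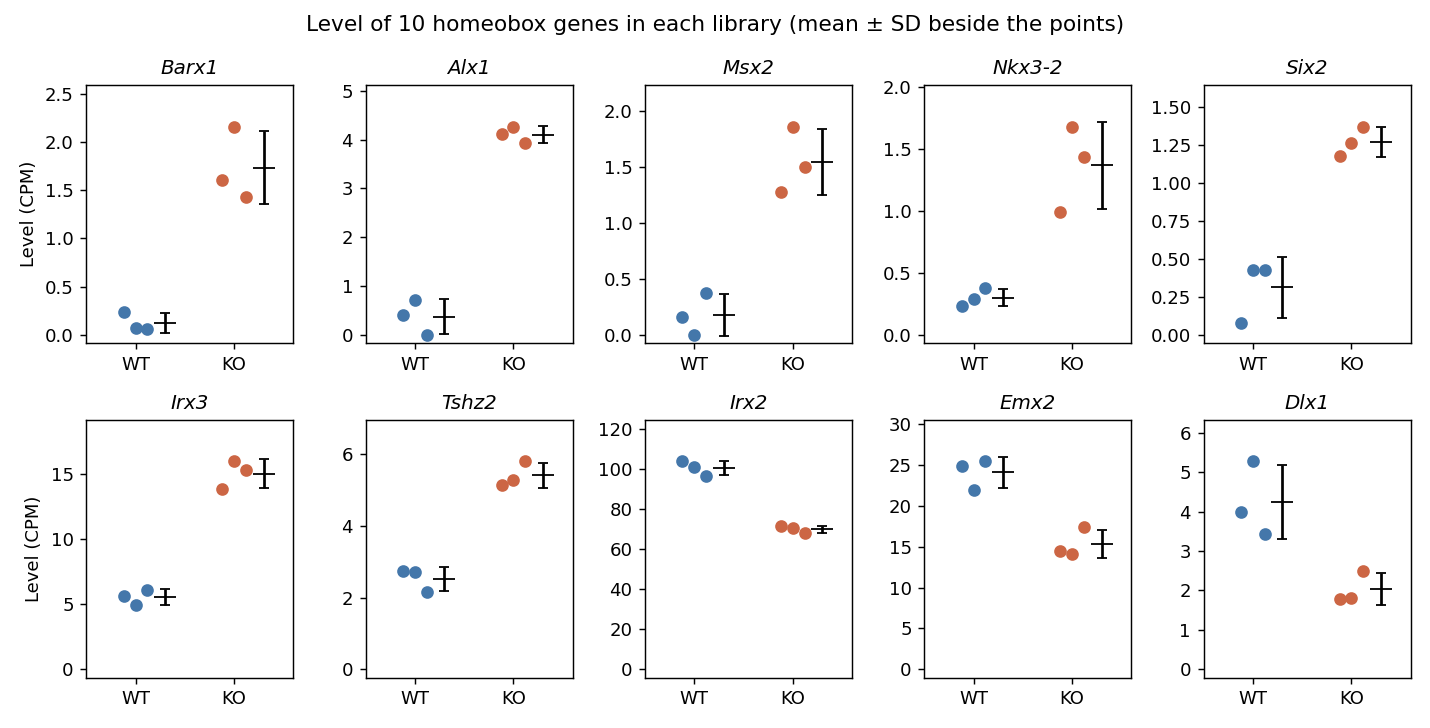
Level in CPM (vertical axes, different scale in each panel, all including 0) of the 10 homeobox genes described library by library; each point is 1 library, and the bar beside it is the mean ± SD of 3. In every panel the WT and KO points do not overlap: the first 7 genes are higher in KO, and Irx2, Emx2 and Dlx1 are lower.

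The Iroquois genes, TALE genes that pattern limb, heart and nervous system, lie in a pair of clusters, with Irx1, Irx2 and Irx4 on chromosome 13 and Irx3, Irx5 and Irx6 on chromosome 8. Irx3 (ENSMUSG00000031734, chr8:92525153-92528695) was at 5.64, 4.92 and 6.12 CPM in WT and at 13.8, 16.0 and 15.3 CPM in KO. Its log2 fold change of 1.42 (SE 0.15, edgeR adjusted p = 2.41e-19) stayed between 1.34 and 1.51 when any 1 library was left out. Its cluster neighbour Irx5, whose start lies 559 kb away, was at 24.2, 30.7 and 26.5 CPM in WT and at 20.6, 21.7 and 25.2 CPM in KO. These values overlapped, and Irx5 was not called (log2 fold change -0.28, SE 0.10, edgeR adjusted p = 0.0783), but it was called without WT replicate 1. The log2 ratio of Irx3 to Irx5 CPM was -2.29 ± 0.307 in WT and -0.58 ± 0.139 in KO, a difference of 1.71 with no overlap. The 2-sided exact permutation test gave p = 0.1, the smallest that 3 against 3 allows (0.133 adjusted over the 4 linked pairs compared), so this test cannot reach 0.05 with these group sizes. The antisense RNA Irx3os had 4, 24 and 1 counts in WT and 10 in each KO library, and was not called. Most of its WT counts came from WT replicate 2.

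On chromosome 13 both expressed members were lower in KO. Irx2 (ENSMUSG00000001504, chr13:72776939-72782317) was at 104, 101 and 96.7 CPM in WT and at 71.5, 70.4 and 68.1 CPM in KO. The groups stood well apart, and the log2 fold change was -0.52 (SE 0.08, edgeR adjusted p = 1.13e-09). Irx1 fell from 132 ± 8.84 to 108 ± 1.15 CPM (log2 fold change -0.29, SE 0.07, edgeR adjusted p = 0.00180). The log2 ratio of Irx1 to Irx2 rose by 0.23 between the group means, without overlap, at the same smallest exact p of 0.1 (0.133 adjusted). Of the other linked pairs compared, the log2 ratio of Lmx1b to Pbx3 differed by -0.57 (exact p = 0.1, 0.133 adjusted) and that of Dlx1 to Dlx2 by -0.70, where the genotypes overlapped (exact p = 0.2). Over the family, the summed FPKM was 91.5 ± 2.01 in WT and 75.0 ± 0.780 in KO, 81.9% of WT. The share of Irx3 in it was 2.19% ± 0.185 in WT and 7.23% ± 0.503 in KO, against a nearly constant Irx1 share of 55.0% and 54.9%.

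**Figure D4:**
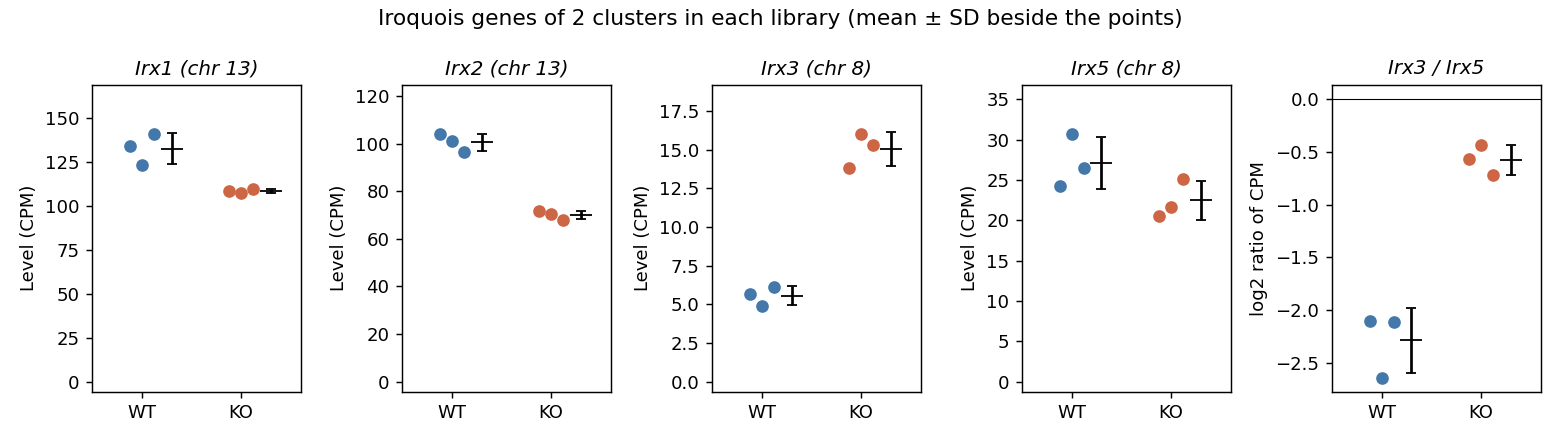
Level in CPM of Irx1 and Irx2 (chromosome 13) and Irx3 and Irx5 (chromosome 8) in each library, and the log2 ratio of Irx3 to Irx5; points are libraries and bars the mean ± SD of 3. Irx1 and Irx2 are lower and Irx3 higher in KO, the Irx5 points overlap, and the ratio is between -2.64 and -2.10 in WT and between -0.72 and -0.44 in KO.

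Of the other genes that fell, Dlx1 and Emx2 are ANTP genes known from forebrain, and Emx2 also from the urogenital system and scapula. Dlx1 (ENSMUSG00000041911, chr2:71358457-71364325) was at 4.0, 5.27 and 3.43 CPM in WT and at 1.79, 1.80 and 2.50 CPM in KO. The log2 fold change was -1.06 (SE 0.25, edgeR adjusted p = 7.14e-04), and was under 2-fold without WT replicate 2, KO replicate 1 or KO replicate 2 (-0.87, -0.97 and -0.99). With limma on log2(FPKM + 1) it missed the threshold (adjusted p = 0.145). The linked Dlx2 had a log2 fold change of -0.36 (SE 0.17, edgeR adjusted p = 0.206). Dlx1as overlaps all of Dlx1 on the opposite strand, with 81 counts in WT and 91 in KO, and the library kit does not mark strand. The summed DLX level was 3.73 ± 0.533 FPKM in WT and 2.68 ± 0.0983 FPKM in KO, without overlap.

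Emx2 (ENSMUSG00000043969, chr19:59446804-59453789) was at 24.8, 22.0 and 25.4 CPM in WT and at 14.5, 14.1 and 17.4 CPM in KO. The highest KO library lay below the lowest WT library, and the log2 fold change was -0.66 (SE 0.11, edgeR adjusted p = 2.26e-07). Its divergent RNA Emx2os, which overlaps it over 264 bases, had a log2 fold change of 0.00 (SE 0.28).

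The LIM class, whose proteins need LDB adaptors, held 2 smaller decreases. Lhx9, known from gonad and limb, fell from 49.8 ± 2.46 to 41.2 ± 0.897 CPM (log2 fold change -0.27, SE 0.09, edgeR adjusted p = 0.0244), and was called in 2 of the 6 fits that left out a library. Lmx1b, the dorsal limb factor, went from 9.62 ± 2.36 to 7.11 ± 0.922 CPM (log2 fold change -0.46, SE 0.16, edgeR adjusted p = 0.0409). The WT value rested on WT replicate 3 at 12.3 CPM, the other WT libraries being at 8.39 and 8.13 and a KO library at 8.12. Without WT replicate 3 the log2 fold change was -0.22 (edgeR adjusted p = 0.621), without KO replicate 1 or KO replicate 2 the adjusted p was 0.179 and 0.245, and DESeq2 did not call it (adjusted p = 0.204). The call of Lhx9 was lost without WT replicate 3, without any of the KO libraries and with limma on log2(FPKM + 1) (adjusted p = 0.114). Isl1, Lhx2, Lhx6, Lhx8 and Lmx1a did not pass. Lhx2 had 2, 2 and 16 counts in WT and 5, 2 and 2 in KO, so that its log2 fold change of -1.27 (SE 0.86) rested on WT replicate 3.

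The remaining called members rose by under 1.5-fold. Tgif1, a repressor of TGF-beta and retinoid responses, went from 42.4 ± 2.65 to 57.4 ± 4.83 CPM (log2 fold change 0.43, SE 0.09, edgeR adjusted p = 1.60e-05). Hlx, a gene of visceral mesenchyme, went from 11.9 ± 0.121 to 16.0 ± 0.723 CPM (log2 fold change 0.43, SE 0.13, edgeR adjusted p = 0.0103), and lost its call without KO replicate 2 or KO replicate 3. Meis2, a proximal limb factor and Hox cofactor, went from 44.7 ± 2.14 to 55.8 ± 2.02 CPM (log2 fold change 0.32, SE 0.09, edgeR adjusted p = 0.00328), and lost its call without KO replicate 1 and with limma on log2(FPKM + 1) (adjusted p = 0.101). Its relatives Meis1 and Meis3 had log2 fold changes of 0.13 (SE 0.10) and -0.09 (SE 0.14).

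The 34 members tested but not called ranged from tightly measured genes to barely detected ones. Prrx1 was at 297, 306 and 300 CPM in WT and 312, 312 and 303 in KO, and the 95% interval of its log2 fold change ran from -0.10 to 0.17. For Shox2 the interval was -0.18 to 0.14, for Alx4 -0.15 to 0.23, for En1 -0.32 to 0.03, for Pknox1 -0.30 to 0.06 and for Pbx3 -0.03 to 0.33. A 1.5-fold change lies outside each of these intervals. Pbx2 (log2 fold change 0.26, edgeR adjusted p = 0.0679), Mkx (0.65, 0.171), Prrx2 (0.19, 0.288) and Pknox2 (0.30, 0.152) missed the threshold with positive values. Without WT replicate 1 Pbx2 and Prrx2 were called, and without WT replicate 3 Tshz1 was. Meox1, Hhex, Pbx4, Tgif2 and Otx1 had log2 fold changes of 0.60, 0.14, 0.09, -0.11 and -0.49, with standard errors of 0.18 to 0.72.

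For genes near the floor the depth limits any statement. Gsc had 0 counts in the 3 WT libraries and 7, 2 and 2 in KO, 11 together, most of them from KO replicate 1. Set against a floor of 3 counts over the WT group, this was 3.09-fold higher in KO. Nkx2-5 had 5 counts in WT and 0 in KO, 1.98-fold higher in WT by the same floor over the KO group. Both ratios take the counts of the higher group as exact, so they are not lower limits. Isl1 had 4, 3 and 3 counts in WT and 21, 7 and 8 in KO (log2 fold change 1.51, SE 0.70, edgeR adjusted p = 0.211). None of these was called. Dlx4 (3 and 5 counts) and Meox2 (4 and 3) gave ratios with exact intervals that include 1.

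The genes next to the 10 members described library by library were examined as well, taking the nearest gene on each side with a mean of at least 1 CPM. Of these 20 neighbours 2 were called, both lower in KO and both beside members that rose: Slc6a15 beside Alx1 (log2 fold change -0.72, SE 0.16, edgeR adjusted p = 1.71e-04) and Bod1l beside Nkx3-2 (-0.21, SE 0.07, 0.0383). None was called in its member's direction. Among all genes at this level 9.08% were higher and 7.88% lower, so a count of this size is near the background. Fto, which flanks Irx3, had a log2 fold change of -0.05 (SE 0.08), and Ptpdc1 and Phf2, which flank Barx1, had -0.01 (SE 0.11) and 0.01 (SE 0.07). The members lie on 15 chromosomes, with 12 on chromosome 2, which also carries Mcm8. Of the 11 tested there 4 were called (Meis2, Tshz2, Dlx1 and Lmx1b), against 14 of the 41 tested on other chromosomes, and the nearest to Mcm8, Meis2, starts 17.0 Mb from it.

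Among cofactors the homeobox classes use, 20 of 21 were tested, with 4 higher and 2 lower in KO and a median log2 fold change of 0.09, beside 9.08% higher and 7.88% lower among all genes with a mean of at least 1 CPM. Tle1, a Groucho corepressor, rose from 38.1 ± 3.22 to 71.3 ± 2.76 CPM (log2 fold change 0.90, edgeR adjusted p = 9.25e-24). The LIM cofactor Ldb2 fell from 7.49 ± 1.05 to 3.16 ± 0.129 CPM (-1.23, 3.33e-08) and Eya1, a partner of SINE-class proteins, fell from 41.3 ± 2.17 to 26.4 ± 1.72 CPM (-0.65, 6.53e-10). Tle2, Ssbp3 and Ssbp4 rose by 0.26 to 0.32 on the log2 scale. The higher count came to 1 without KO replicate 1 or KO replicate 3, and to 2 without WT replicate 2 and with DESeq2.

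Of 20 skeletal regulators and BMP feedback genes, all tested, 5 were higher and 3 lower, with a median log2 fold change of 0.02, beside the same 9.08% and 7.88%. The chondrocyte factors Sox5 (0.513 to 4.60 CPM, log2 fold change 3.16) and Sox9 (9.25 to 24.0 CPM, 1.37) and the tendon factor Scx (9.88 to 21.1 CPM, 1.08) rose over 2-fold. Id2 and Id1 rose by 0.66 and 0.49 on the log2 scale, and Bambi fell by 0.79. The lower count came to 1 without WT replicate 3 and without each of the KO libraries.

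A further list of 118 homeobox genes that are neither members nor Hox nor Pitx genes was read beside the members. Of these, 117 were in the table by that symbol, 67 were tested, and 72 had 3 counts or fewer in every library. The test called 7 higher and 7 lower, near the 9.08% and 7.88% of all genes with a mean of at least 1 CPM. Over 2-fold were Hopx, at 2, 0 and 1 counts in WT and 29, 17 and 7 in KO, Pax3, which fell from 5.40 ± 0.379 to 1.82 ± 0.349 CPM, and Vax2, which fell from 13.1 ± 3.11 to 6.42 ± 0.643 CPM. The median log2 fold change was 0.25 over the 67 tested.

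Markers of other cell types moved with genotype beside these genes, and their part in the members' changes was not tested. The 7 cartilage markers summed to 14.3 to 17.6 CPM in WT and 37.3 to 38.1 in KO, with 2 called (Sox9 and Acan), while the defining Col2a1 was at 0.902 and 1.01 CPM and Col9a1 and Matn1 were at 0. The 9 mesothelial markers summed to 11.98 to 15.1 and 53.3 to 60.8 CPM, with Msln at 2.88 and 44.9 CPM, which made up most of the KO sum, Krt19 also higher, Bnc1 called lower (6.80 to 4.50 CPM), and Lrrn4 and Muc16 at 0. The 10 neural and glial markers summed to 36.7 to 40.9 and 114 to 119 CPM, with Stmn2 at 9.82 and 73.7 CPM and Sox10 and Foxd3 at 0. The 10 epithelial markers summed to 3.56 to 5.41 and 12.3 to 13.3 CPM, with Krt18 at 0.572 and 4.56 CPM and Krt5 and Esrp1 at 0. Of the fibroblast markers 2 were higher and 4 lower in KO, among them Thy1 (394 to 194 CPM) and Pdgfrb (472 to 282 CPM). Muscle, endothelial and blood markers summed to under 5 CPM in every library, with none called.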

How the data were processed

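RNA-seq was made from 3 WT and 3 Mcm8 KO MEF samples. Per the labels and the study's methods, reads were cleaned with fastp, aligned with HISAT2 2.0.5 and assigned to genes with featureCounts 1.5.0-p3. The authors deposited raw counts per gene and, in a second table, FPKM made from them by gene length and library size. The processing notes name GRCm38 and mm10, whereas the methods name Ensembl release 106, and 2.81% of 52044 genes in the deposited table start where a GRCm38 annotation puts them, so coordinates are given as deposited and promoters separately on GRCm38.p6.

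Counts were scaled by TMM and tested with edgeR 4.0.16 (glmQLFit, glmQLFTest; R 4.3.3), KO against WT with no covariate, over the 26898 genes whose FPKM exceeded 0 in any library, with Benjamini-Hochberg adjustment. The other 28667 genes had 0 in every library. Standard errors and intervals are of the fitted log2 fold change. CPM are TMM-scaled. Alternatives were RLE size factors, the filterByExpr gene filter, DESeq2 1.42.0, a replicate block, leaving out each library, and limma 3.58.1 on log2(FPKM + 1), with a pseudocount of 1. The fit was tested on simulated data. Totals of 12722979 to 21022755 counts put 3 counts at 0.142 to 0.235 CPM. Exact intervals of count ratios cover counting error only, and the floors do not cover that of the higher group.

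Members and lists were chosen with earlier results of these data known. Members called with a log2 fold change above 0.5 in size and at least 1 CPM in a genotype were described library by library, other called members and the 5 of highest FPKM in short, and those with 3 counts or fewer in every library by name. From the other lists, called genes were named (at most 6 of the lowest adjusted p for cofactors and skeletal genes, and the over 2-fold ones for other homeobox genes). The other values of members were chosen after they were seen.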

Additional observations from a re-analysis of the deposited data

How the results depend on the processing

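The 18 member calls kept their direction under every alternative that tested them. All 18 were kept with RLE size factors, 17 with DESeq2 (Lmx1b lost), 16 with the filterByExpr filter (Barx2 removed by the filter, Lmx1b lost, Pbx2 added), and 14 to 18 when 1 library was left out (Irx5, Pbx2 and Prrx2 added without WT replicate 1, Tshz1 without WT replicate 3). With limma on log2(FPKM + 1), 12 were kept (Dlx1, Lhx9, Lmx1b, Meis2, Six4 and Tshz2 lost), 3 members were lower, 2 were over 2-fold higher and 0 over 2-fold lower, other homeobox genes were 2 higher and 2 lower, cofactors 2 higher, and skeletal and BMP genes 3 higher and 1 lower. That scale compresses low values, and it called 912 of all genes tested against 1337 higher and 1083 lower with edgeR. The filterByExpr filter left 4 other homeobox genes higher, and DESeq2 left 2 cofactors higher. The cause of these count changes was not tested. Leaving out 1 library gave 10 to 14 members higher, 4 to 7 lower, 6 to 8 over 2-fold higher, 0 to 1 over 2-fold lower and 30 to 34 without overlap; other homeobox genes 6 to 8 higher and 5 to 8 lower; cofactors 1 to 4 higher and 2 to 3 lower; skeletal and BMP genes 4 to 6 higher and 1 to 4 lower; the log2 fold change of Mcm8 ran from -1.84 to -1.64, and all genes called from 1636 (without KO replicate 1) to 3274 (without WT replicate 1), with 1669 without KO replicate 3. Libraries with the same replicate number did not visibly deviate together (r = -0.0017, -0.0047 and 0.041 across 13222 genes, which are not independent). This cannot exclude a pairing of the samples, which the labels do not state. With the replicate block 12 members were higher and 5 lower, with Lmx1b lost (adjusted p = 0.0605). Members under about 2 CPM rest on few counts.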
